A study of Mus musculus with 12 samples.

Results

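The genes described here are 10 transcription factor genes that set and hold B lineage identity: Pax5, Ebf1, Tcf3, Ikzf1, Ikzf3, Spib, Pou2f2, Foxo1, Bach2 and Irf8. They were taken by symbol from count tables that list 24421 genes, and all 10 were among the 12878 genes with enough reads to be tested. RNA came from B220+ splenocytes of 12 mice aged 4 to 5 weeks, with 3 mice per genotype and 1 library per mouse. The 4 groups were EuMyc mice that also carried the conditional Max knockout (EuMyc Max KO), EuMyc mice with intact Max (EuMyc), conditional Max knockout mice without the transgene (Max KO) and mice with intact Max and no transgene (WT). The EuMyc transgene places Myc under the enhancer of the immunoglobulin heavy chain locus, which is active in the B lineage, and the series title calls the cells premalignant. MAX is the partner with which MYC binds DNA. The Cre line that removes Max is not given in the labels. B220 is carried by B cells from early stages on and also by plasmacytoid dendritic cells, so the sort takes both.

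B cell development rests on a layered set of factors. TCF3, EBF1 and FOXO1 act in progenitors and switch on early B lineage genes, including Pax5. PAX5 then activates genes of the B cell receptor complex and represses genes of other lineages. IKZF1 (Ikaros) and IKZF3 (Aiolos) are zinc finger factors that act together as cells leave the cycling pre-B stage. SPIB and IRF8 are an ETS factor and an interferon regulatory factor that work in B cells and in dendritic cells. POU2F2 binds octamer sequences in B cells, and BACH2 holds back the plasma cell programme by repressing Prdm1.

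The promoter windows of Tcf3 and Irf8 are shown because these genes had the highest and the lowest log2 fold change of the 10 in EuMyc against WT cells, a choice made after the values were seen. Each window runs 5′ to 3′ on the strand of the gene, with 250 bases before and 50 bases after the RefSeq start, on build GRCm38.p6. The Tcf3 window lies at chr10:80433586-80433885 on the minus strand, and the Irf8 window lies at chr8:120736108-120736407 on the plus strand. Capitals mark the E-box core CANNTG, the letters to which TCF3-type and MYC-type basic helix-loop-helix proteins bind.
Tcf3: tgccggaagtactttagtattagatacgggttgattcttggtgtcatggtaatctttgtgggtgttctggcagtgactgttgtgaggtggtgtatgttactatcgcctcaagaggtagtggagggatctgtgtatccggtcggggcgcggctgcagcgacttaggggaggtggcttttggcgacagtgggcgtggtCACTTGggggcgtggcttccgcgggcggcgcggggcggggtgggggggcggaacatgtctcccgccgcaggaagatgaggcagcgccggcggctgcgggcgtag
Irf8: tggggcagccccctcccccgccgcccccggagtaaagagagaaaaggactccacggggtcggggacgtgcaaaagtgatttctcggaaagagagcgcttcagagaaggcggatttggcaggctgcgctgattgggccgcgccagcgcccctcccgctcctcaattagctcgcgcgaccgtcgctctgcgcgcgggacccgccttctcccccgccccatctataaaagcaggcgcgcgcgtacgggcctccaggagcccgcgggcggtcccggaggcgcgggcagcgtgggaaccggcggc
Tcf3 has the single core CACTTG in its window. Irf8 has none in this one, and its second RefSeq window, at chr8:120738389-120738688 and not shown, has 2 (CAGGTG and CACTTG). RefSeq promoter windows matched 9 of the 10 genes, with 12 windows in all. The letters CACGTG, the E-box bound best by MYC and MAX, stand in none of these 12 windows on either strand, and 7.15% of all 32851 RefSeq windows of 300 bases hold them. CANNTG, which includes CACGTG, is found in 72.3% of all windows. The octamer ATGCAAAT stands in 1.74% of all windows and in none of the 12. A match or its absence describes these letters only, and distal enhancers were not examined.

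Reads counted in genes ran from 14973332 to 21671601 per library. Levels are given as CPM, read counts scaled to a common library size after TMM scaling. Max had 108, 104 and 102 CPM in EuMyc Max KO, 126, 127 and 130 CPM in EuMyc, 102, 102 and 99.8 CPM in Max KO and 139, 110 and 108 CPM in WT libraries. Its reads are counted over the whole gene and the removed exons are not given, so this level does not measure the deletion. The log2 difference of Max was -0.29 in EuMyc Max KO against EuMyc (adjusted p = 0.00462) and -0.23 in Max KO against WT (adjusted p = 0.0623). Myc had 487 to 565 CPM in EuMyc Max KO, 975 to 1049.3 CPM in EuMyc, 120 to 136 CPM in Max KO and 96.0 to 115 CPM in WT libraries. The second principal component set EuMyc Max KO replicates 1 and 2 (-73.1 and -56.8) apart from replicate 3 (-19.6). Erythroid marker RNA was also higher in replicates 1 and 2, at 5265.6 and 3523.0 summed CPM against 927 in replicate 3. For comparisons with this group, counts of the 10 factors and counts or medians of the gene lists are therefore also given with replicate 3 as its only library. This setting was chosen after these values were seen, and 13401 genes were tested in it. B lineage markers, of which 8 of 9 were in the tables, were detected in every library. Their summed level was 7283.5 to 8828.5 CPM in EuMyc Max KO, 4365.7 to 5198.3 in EuMyc, 8883.8 to 9867.3 in Max KO and 10527.1 to 11519.9 in WT libraries.

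**Figure D1:**
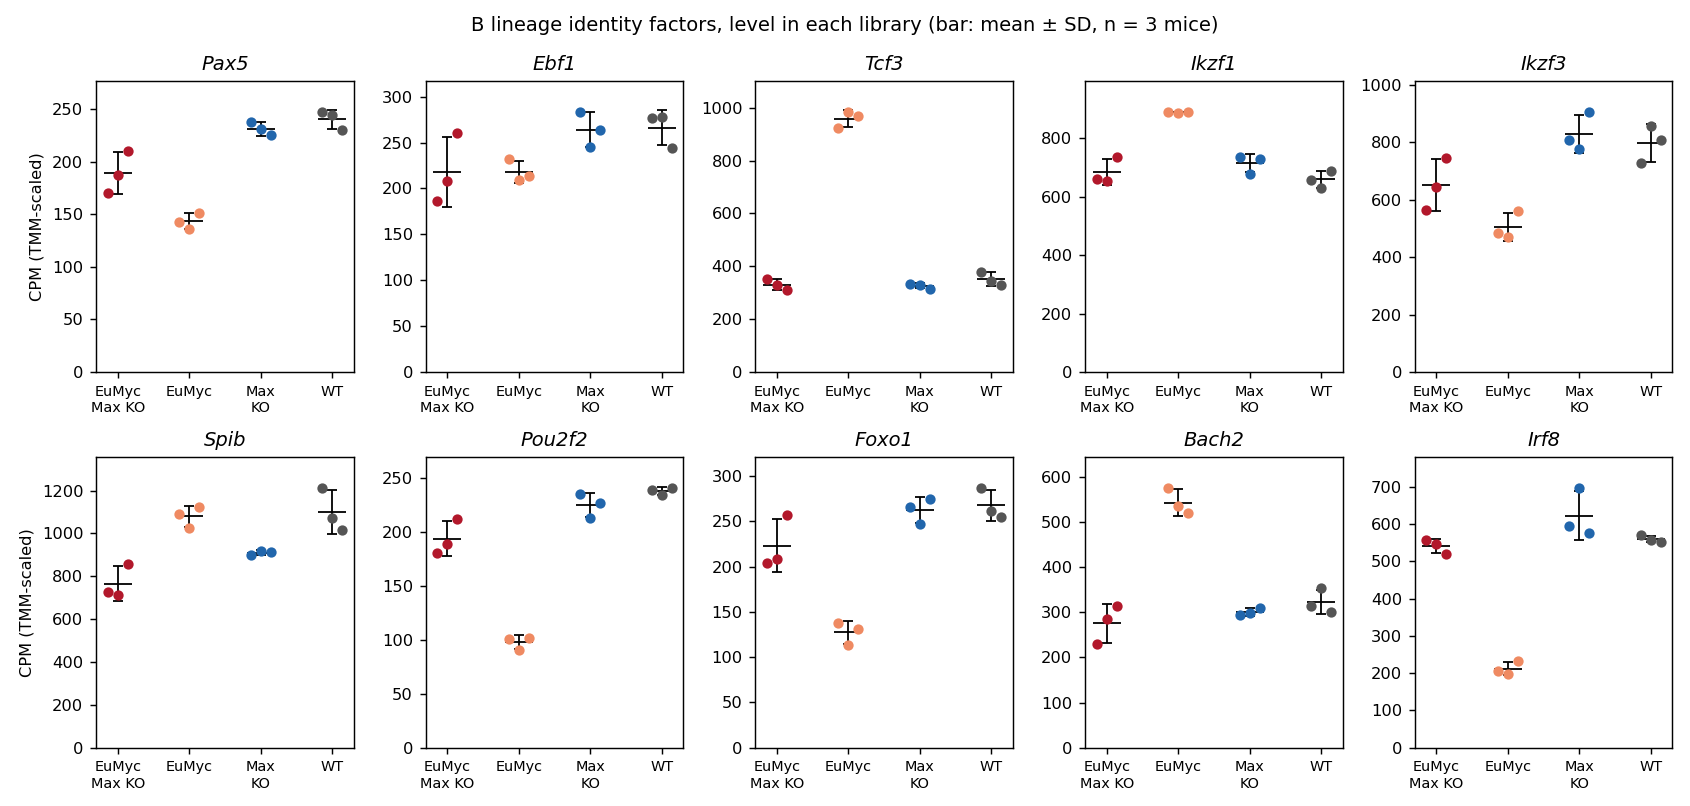
Level of each of the 10 factor genes (CPM, vertical axis, from 0) in every library of the 4 groups, with the mean ± SD of 3 mice as a bar. The 3 EuMyc points lie above all other points for Tcf3, Ikzf1 and Bach2 and below all other points for Pax5, Ikzf3, Pou2f2, Foxo1 and Irf8.

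The transgene's effect with Max intact was read from EuMyc against WT cells. Of the 10 genes, 9 changed, 3 higher and 6 lower, by edgeR's quasi-likelihood test at a Benjamini-Hochberg adjusted p under 0.05. Tcf3, Ikzf1 and Bach2 rose, and Pax5, Ebf1, Foxo1, Ikzf3, Pou2f2 and Irf8 fell. The background was high, since 71.6% of all tested genes changed in this comparison, 36.7% higher and 34.9% lower. The count of 9 has to be read against this background. The median log2 fold change of the 10 genes was -0.47, against 0.01 over all tested genes, and the median absolute change was 0.75 against 0.65. Beside this, marker levels of other cell types differed between the groups. Erythroid markers summed to 310 to 398 CPM in EuMyc and 63.9 to 285 CPM in WT libraries, and neutrophil markers to 8.83 to 13.2 CPM in EuMyc and 6.19 to 14.3 CPM in WT libraries. Summed T cell markers were 30.1 to 32.1 CPM in EuMyc and 112 to 136 CPM in WT, plasmacytoid dendritic markers 53.4 to 75.3 against 198 to 294 CPM, and macrophage markers 935 to 1203.1 against 2154.9 to 2698.5 CPM, with 11 of 13 macrophage genes lower and 1, Itgam, higher (31.7 to 40.8 against 20.7 to 23.9 CPM). Conventional dendritic markers summed to 6.72 to 8.1 CPM in EuMyc and 32.1 to 51.9 CPM in WT, with 7 of 8 genes lower and 0 higher. NK cell markers summed to 3.87 to 9.4 against 21.2 to 35.4 CPM. Of 8 plasmacytoid dendritic genes 7 were lower and 1, Cox6a2, higher (3.99 to 7.3 against 2.75 to 3.86 CPM). The part of these cell types in the changes of the 10 genes was not tested. In bulk RNA fewer cells of a type and less RNA per cell cannot be told apart.

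Tcf3 encodes an E protein, a basic helix-loop-helix factor needed from the first step of B cell development. Its gene lies at chr10:80409514-80433647 (mm10, minus strand). It had 923, 983 and 969 CPM in EuMyc libraries, against 380, 346 and 330 CPM in WT libraries. Every EuMyc library was far above every WT library, and the groups did not overlap. The log2 fold change was 1.45 ± 0.07 (SE, adjusted p = 1.89e-09), the highest of the 10 genes, and it stayed between 1.32 and 1.5 in the 13 other settings tried. No other factor of the 10 changed upward to this extent.

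Ebf1 (chr11:44617317-45008091) works with TCF3 and opens chromatin at B lineage genes. It had 232, 209 and 213 CPM in EuMyc libraries, against 277, 278 and 244 CPM in WT libraries. The groups did not overlap, but the gap between their nearest libraries was small. Its log2 fold change was -0.29 ± 0.11 (SE, adjusted p = 0.0281), and the call was lost when either WT replicate 1 or 2 or EuMyc replicate 2 or 3 was left out, with adjusted p of up to 0.0903.

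Pax5 (chr4:44524757-44710487), the B cell commitment factor, had 143, 136 and 151 CPM in EuMyc libraries and 247, 244 and 230 CPM in WT libraries. All EuMyc libraries were well below the WT libraries. The log2 fold change was -0.75 ± 0.07 (SE, adjusted p = 9.39e-07), or 0.596 of the WT level.

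Foxo1 (chr3:52268336-52353221), a forkhead factor held outside the nucleus by PI3 kinase and AKT signalling, had 138, 113 and 131 CPM in EuMyc libraries and 287, 261 and 255 CPM in WT libraries. The lowest WT library was far above the highest EuMyc library. Its log2 fold change was -1.07 ± 0.10 (SE, adjusted p = 4.29e-07). Its exons overlap those of Gm20402 on the opposite strand over 674 bases, and without a known strand setting reads there cannot be assigned to either gene.

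The Ikaros family pair moved in opposite directions. Ikzf1 (chr11:11685003-11772926) had 890, 889 and 890 CPM in EuMyc libraries and 659, 632 and 689 CPM in WT libraries, a log2 fold change of 0.43 ± 0.06 (SE, adjusted p = 4.88e-05). Ikzf3 (chr11:98464902-98546031) had 483, 471 and 561 CPM in EuMyc libraries and 726, 856 and 806 CPM in WT libraries, a log2 fold change of -0.66 ± 0.11 (SE, adjusted p = 1.10e-04). Neither gene's groups overlapped. Per kilobase of exon, the ratio of Ikzf1 to Ikzf3 was 0.694 ± 0.065 in EuMyc Max KO, 1.16 ± 0.11 in EuMyc, 0.568 ± 0.035 in Max KO and 0.546 ± 0.057 in WT (SD, n = 3 each). This ratio was chosen after the values were seen, so it is a description: Ikzf1 exceeded Ikzf3 per exon length in the 3 EuMyc libraries and in none of the other 9.

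Among the ETS and interferon regulatory factors, Irf8 fell and Spib did not pass the test. Irf8 (chr8:120736358-120756694) had 206, 199 and 232 CPM in EuMyc libraries and 570, 557 and 553 CPM in WT libraries. The EuMyc libraries were far below the WT libraries. With a log2 fold change of -1.40 ± 0.08 (SE, adjusted p = 7.67e-09), Irf8 had the lowest value of the 10 genes. Spib (chr7:44525993-44532071) had 1089.4, 1026.7 and 1123.6 CPM in EuMyc libraries and 1212.1, 1072.0 and 1014.7 CPM in WT libraries. These ranges overlapped, and the log2 difference was -0.03 with a 95% interval of -0.21 to 0.16 (adjusted p = 0.794). Spib and Irf8 are also made by plasmacytoid dendritic cells. The summed markers of these and of conventional dendritic cells are given above.

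Of the factors with roles in later B cell stages, Pou2f2 fell and Bach2 rose. Pou2f2 (chr7:25087344-25179726), which encodes OCT2, had 101, 90.7 and 102 CPM in EuMyc libraries and 239, 234 and 241 CPM in WT libraries. Its log2 fold change was -1.28 ± 0.07 (SE, adjusted p = 4.41e-09), with no overlap. Bach2 (chr4:32238804-32586108) had 575, 534 and 519 CPM in EuMyc libraries and 314, 353 and 301 CPM in WT libraries. All EuMyc libraries were above all WT libraries, with a log2 fold change of 0.75 ± 0.10 (SE, adjusted p = 1.66e-05). Exons of Bach2 overlap those of Bach2os on the opposite strand over 537 bases, and those of Pou2f2 overlap Mir6537 on the same strand over 35 bases, so reads there are uncertain.

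**Figure D2:**
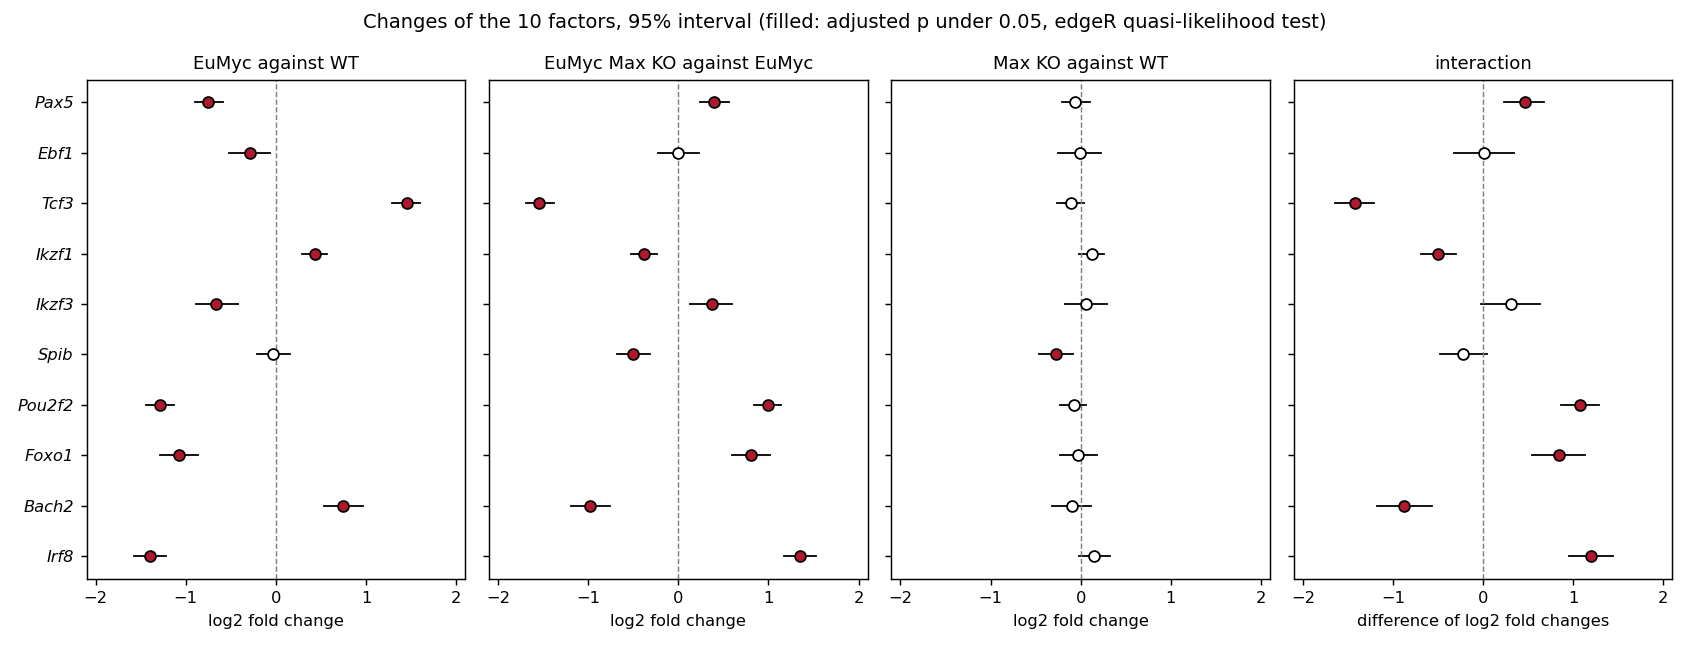
Log2 fold change of each factor gene with its 95% interval (horizontal axis) in 4 panels: EuMyc against WT, then the transgenic pair of groups, then Max KO against WT, and last the interaction, which is the difference between the log2 effects of Max loss with and without the transgene. Filled points passed an adjusted p under 0.05 in edgeR's quasi-likelihood test, which 9, 9, 1 and 7 of the 10 genes did.

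What the loss of Max changed in cells with the transgene was read from EuMyc Max KO against EuMyc cells. Of the 10 genes 9 changed, 5 higher (Pax5, Foxo1, Ikzf3, Pou2f2 and Irf8) and 4 lower (Tcf3, Ikzf1, Spib and Bach2). Among all tested genes 73.7% changed, 37.6% higher and 36.1% lower. The median log2 fold change of the 10 genes was 0.18 against 0.03 over all genes, and the median absolute change was 0.65 in both. This comparison uses the same EuMyc libraries as the one above, so they are not independent. Marker levels of other cell types differed here too. Summed macrophage markers were 3212.3 to 6191.4 CPM in EuMyc Max KO and 935 to 1203.1 CPM in EuMyc. Of 13 genes 12 were higher and 1 lower. Plasmacytoid dendritic markers summed to 165 to 223 against 53.4 to 75.3 CPM (7 of 8 genes higher, 1 lower). T cell markers summed to 162 to 170 against 30.1 to 32.1 CPM, with all 10 genes higher. The part of these cell types in the changes of the 10 factor genes was not tested. All 9 calls held, in the same direction, when EuMyc Max KO was represented by replicate 3 alone, an alternative chosen after the marker levels were seen.

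Tcf3 was at 352, 330 and 309 CPM in EuMyc Max KO libraries, against the 923 to 983 CPM of EuMyc libraries. Its log2 fold change was -1.54 ± 0.07 (SE, adjusted p = 1.67e-09). Irf8 had 557, 546 and 521 CPM in EuMyc Max KO libraries, against 199 to 232 CPM in EuMyc libraries, and its log2 fold change was 1.35 ± 0.08 (SE, adjusted p = 1.25e-08). These genes, at the ends of the range in the first comparison, were also at the ends of the range here, and for both of them the groups stood far apart.

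Pou2f2 had 181, 189 and 212 CPM in EuMyc Max KO libraries and 90.7 to 102 CPM in EuMyc libraries (log2 fold change 0.99 ± 0.07, SE, adjusted p = 4.74e-08). Bach2 had 229, 284 and 313 CPM in EuMyc Max KO libraries and 519 to 575 CPM in EuMyc libraries (-0.98 ± 0.10, SE, adjusted p = 1.52e-06). Foxo1 had 204, 209 and 257 CPM in EuMyc Max KO libraries and 113 to 138 CPM in EuMyc libraries (0.81 ± 0.10, SE, adjusted p = 6.23e-06). For each of these genes the groups did not overlap.

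The changes of the remaining called genes were smaller. Pax5 had 170, 187 and 210 CPM in EuMyc Max KO libraries and 136 to 151 CPM in EuMyc libraries, a log2 fold change of 0.40 ± 0.07 (SE, adjusted p = 2.63e-04). Ikzf1 had 662, 654 and 735 CPM in EuMyc Max KO libraries and 889 to 890 CPM in EuMyc libraries, a log2 fold change of -0.38 ± 0.06 (SE, adjusted p = 1.44e-04). Ikzf3 had 564, 643 and 744 CPM in EuMyc Max KO libraries and 471 to 561 CPM in EuMyc libraries, a log2 fold change of 0.37 ± 0.11 (SE, adjusted p = 0.0078). Of these genes Ikzf3 came nearest to overlap, since its lowest EuMyc Max KO library barely exceeded the highest EuMyc library.

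Spib and Ebf1 differed from the rest in this comparison. Spib, which had not passed the test between EuMyc and WT cells, fell to 728, 712 and 858 CPM in EuMyc Max KO libraries, against 1026.7 to 1123.6 CPM in EuMyc libraries (log2 fold change -0.50 ± 0.08, SE, adjusted p = 1.56e-04). Ebf1 had 186, 208 and 260 CPM in EuMyc Max KO libraries and 209 to 232 CPM in EuMyc libraries, which overlap. Its log2 difference was 0.00 with a 95% interval of -0.23 to 0.23 (adjusted p = 0.993), and Ebf1 had the widest spread of the 10 genes within EuMyc Max KO, at a coefficient of variation of 17.4%.

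Without the transgene, differences upon the loss of Max were small in these genes. In Max KO against WT cells 1 of the 10 genes, Spib, passed the test, and it was lower. Over all tested genes 15.0% passed, 7.27% higher and 7.74% lower. Median absolute log2 change was 0.09 for the 10 genes and 0.18 for all tested genes. Spib had 897, 920 and 912 CPM in Max KO libraries and 1212.1, 1072.0 and 1014.7 CPM in WT libraries, a log2 fold change of -0.27 ± 0.08 (SE, adjusted p = 0.0467). The groups did not overlap, but the call was lost in 9 of 14 other settings, among them upper-quartile scaling, no filter on low counts and leaving out WT replicate 1 (adjusted p = 0.187), WT replicate 2 or each Max KO replicate in turn. With the replicate number as a block over all 12 libraries its adjusted p was 0.0588, and with that block over the WT and Max KO libraries alone it was 0.0377. The other 9 genes had log2 differences between -0.11 (Tcf3, 95% interval -0.26 to 0.04) and 0.15 (Irf8, -0.02 to 0.32). For Pax5 the interval was -0.21 to 0.10 and for Ebf1 -0.25 to 0.22.

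Whether the effect of Max loss differed with the transgene was tested as an interaction. It passed for 7 of the 10 genes, 4 with a positive and 3 with a negative difference, while 55.7% of all tested genes passed, 27.8% positive and 27.9% negative. Positive differences were found for Irf8 (1.2 ± 0.11), Pou2f2 (1.07 ± 0.10), Foxo1 (0.84 ± 0.14) and Pax5 (0.46 ± 0.10), and negative ones for Tcf3 (-1.42 ± 0.10), Bach2 (-0.88 ± 0.14) and Ikzf1 (-0.50 ± 0.09), on the log2 scale with SE. The adjusted p-values of these 7 genes ran from 2.48e-07 for Tcf3 to 0.00221 for Pax5. Ikzf3 (0.31, adjusted p = 0.102), Spib (-0.22, adjusted p = 0.132) and Ebf1 (0.01, adjusted p = 0.947) did not pass. The fall of Spib upon Max loss was therefore not shown to differ between cells with and without the transgene. This depended on single libraries. The interaction of Spib passed edgeR's test when WT replicate 1 or EuMyc Max KO replicate 3 was left out, with an adjusted p as low as 0.0239.

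How near EuMyc Max KO cells stood to cells without the transgene depended on which libraries were used. Against Max KO cells 2 of the 10 genes changed, both lower, where 14.4% of all tested genes changed, 10.7% higher and 3.69% lower. These were Pax5 (-0.29 ± 0.07, SE, adjusted p = 0.0187) and Ikzf3 (-0.35 ± 0.11, SE, adjusted p = 0.0464). Against WT cells 3 changed, all lower, where 27.8% of all tested genes changed, 17.0% higher and 10.8% lower. They were Spib (-0.52 ± 0.08, adjusted p = 0.00136), Pax5 (-0.35 ± 0.07, adjusted p = 0.0044) and Pou2f2 (-0.30 ± 0.07, adjusted p = 0.00695). The median log2 difference of the 10 genes was -0.22 against Max KO and -0.28 against WT, where over all genes it was 0.00 in both. The call of Pax5 against Max KO was lost in 6 of 14 settings and that of Ikzf3 in 7 of 14, including leaving out EuMyc Max KO replicate 1 or replicate 2.

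Within EuMyc Max KO, replicate 3 had the highest level of the 3 libraries for 8 of the 10 genes, the exceptions being Tcf3 and Irf8, for which replicate 1 was highest. Ebf1, for example, had 260 CPM in replicate 3 and 186 and 208 CPM in replicates 1 and 2. Summed erythroid markers moved with this, at 927 CPM in replicate 3 and 5265.6 and 3523.0 CPM in replicates 1 and 2, against 310 to 398 CPM in EuMyc, 142 to 422 CPM in Max KO and 63.9 to 285 CPM in WT. Of the erythroid list Hbb-bt was at 0 in EuMyc Max KO, and Hba-a1 and Hbb-bt were at 0 in the other groups. Neutrophil markers summed to 22.6 CPM in replicate 3 and to 217 and 198 CPM in replicates 1 and 2, with 124 CPM in Max KO replicate 2 and 6.19 to 16.8 CPM in the libraries of the other groups that remain. With replicate 3 as the single EuMyc Max KO library, a test has to assume that it varies like the other groups. Only log2 differences are therefore given here. Those from WT were -0.38 for Spib, -0.22 for Pax5 and -0.19 for Pou2f2, and those from Max KO were -0.14 for Pax5 and -0.16 for Ikzf3. These keep the sign of the values with all libraries, and a single library also widens the error. DESeq2 with all libraries called 4 of the 10 genes against Max KO and 6 against WT. Without replicate 3 edgeR called 6 and 7. The number of all genes called moved with the setting too. Without 1 library it ran from 1057 to 2846 against Max KO and from 2379 to 4236 against WT. With all libraries it was 1853 and 3581. Macrophage markers summed to 6191.4, 4572.0 and 3212.3 CPM in EuMyc Max KO replicates 1, 2 and 3. Plasmacytoid dendritic markers summed to 223, 220 and 165 CPM there, and T cell markers to 170, 170 and 162 CPM. The part of the RNA of these cell types, erythroid and neutrophil RNA included, in these differences was not tested.

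**Figure D3:**
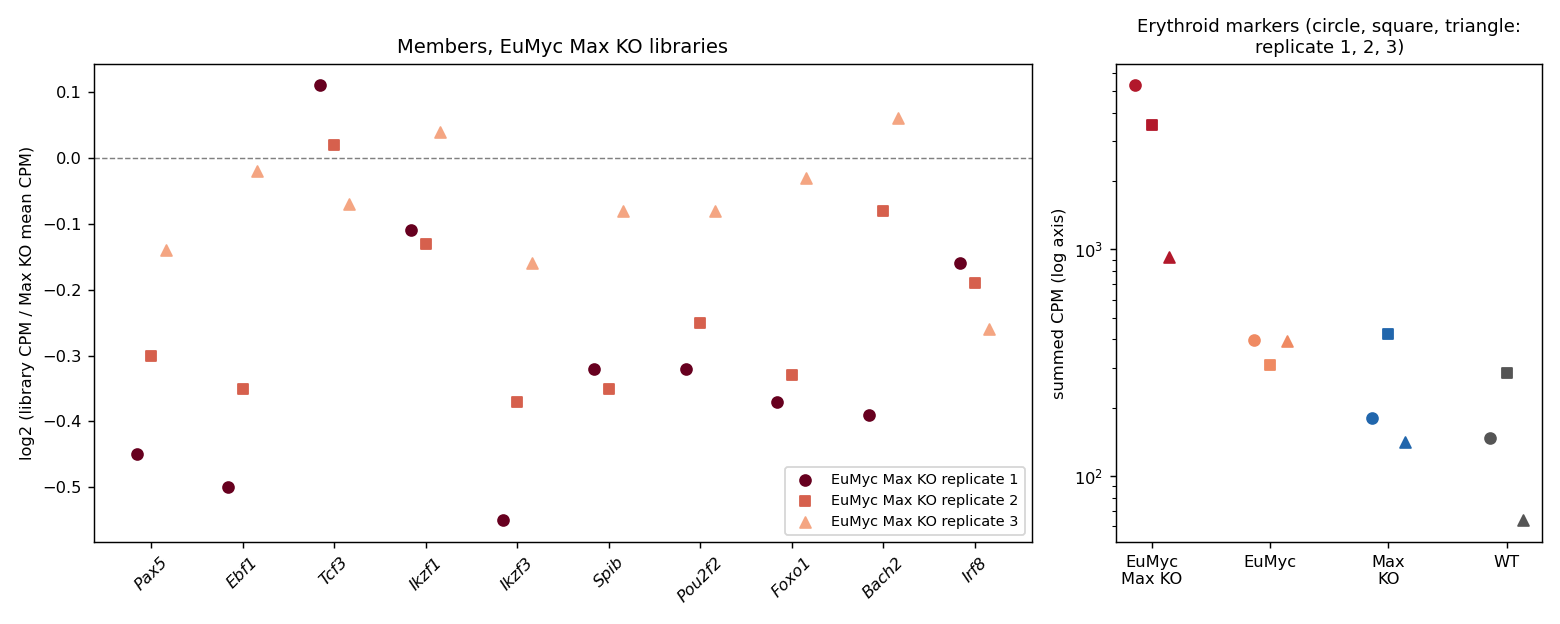
Left, log2 ratio of each EuMyc Max KO library to the Max KO mean for the 10 factor genes. Right, summed CPM of 10 erythroid markers per library on a log axis. Replicate 3, with the fewest erythroid reads of its group (927 CPM), lies nearest to or above the Max KO mean for most genes.

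Taking all 12 libraries, the EuMyc group stood apart for 8 of the 10 genes, with its 3 libraries all above the other 9 for 3 genes and all below them for 5. The same held for 62.4% of all tested genes, 32.3% above and 30.1% below. In Tcf3 the order of means was EuMyc, WT, EuMyc Max KO and Max KO, and the libraries of the last 3 groups overlapped with their neighbours. Bach2 had the order EuMyc, WT, Max KO and EuMyc Max KO, and Ikzf1 the order EuMyc, Max KO, EuMyc Max KO and WT, again with overlap among the lower 3 groups. Pax5 and Pou2f2 had the order WT, Max KO, EuMyc Max KO and EuMyc, with overlap between WT and Max KO only. Foxo1 had the same order of means, with overlap among the upper 3 groups. For Irf8 and Ikzf3 the order was Max KO, WT, EuMyc Max KO and EuMyc, where WT overlapped with EuMyc Max KO in both and with Max KO in Ikzf3. Ebf1 separated into 2 overlapping pairs, WT with Max KO above and EuMyc with EuMyc Max KO below, although the highest EuMyc Max KO library (260 CPM) reached into the upper pair. Spib fell into WT and EuMyc, which overlapped, then Max KO and then EuMyc Max KO.

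Levels of different genes can be set side by side only per exon length. Spib had the highest level of the 10 in every group, at 275 ± 28.8 CPM per kilobase in EuMyc Max KO, 387 ± 17.6 in EuMyc, 326 ± 4.13 in Max KO and 394 ± 36.4 in WT (SD, n = 3 each). Tcf3 held rank 2 in EuMyc at 299 ± 9.82 CPM per kilobase and rank 5 in the other groups, at 103 ± 6.64 in EuMyc Max KO, 102 ± 2.98 in Max KO and 110 ± 7.96 in WT. Irf8 held rank 5 in EuMyc (61.8 ± 5.06 CPM per kilobase) and rank 3 in EuMyc Max KO (158 ± 5.43), Max KO (181 ± 19.0) and WT (163 ± 2.51). Pax5 was the lowest of the 10 in EuMyc Max KO, Max KO and WT, at 23.6, 28.9 and 30.0 CPM per kilobase, and Pou2f2 was the lowest in EuMyc at 12.8. The level per length depends on the exon set, here the merged exons of the GENCODE vM21 basic transcripts, and not on the isoforms made in these cells.

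**Figure D4:**
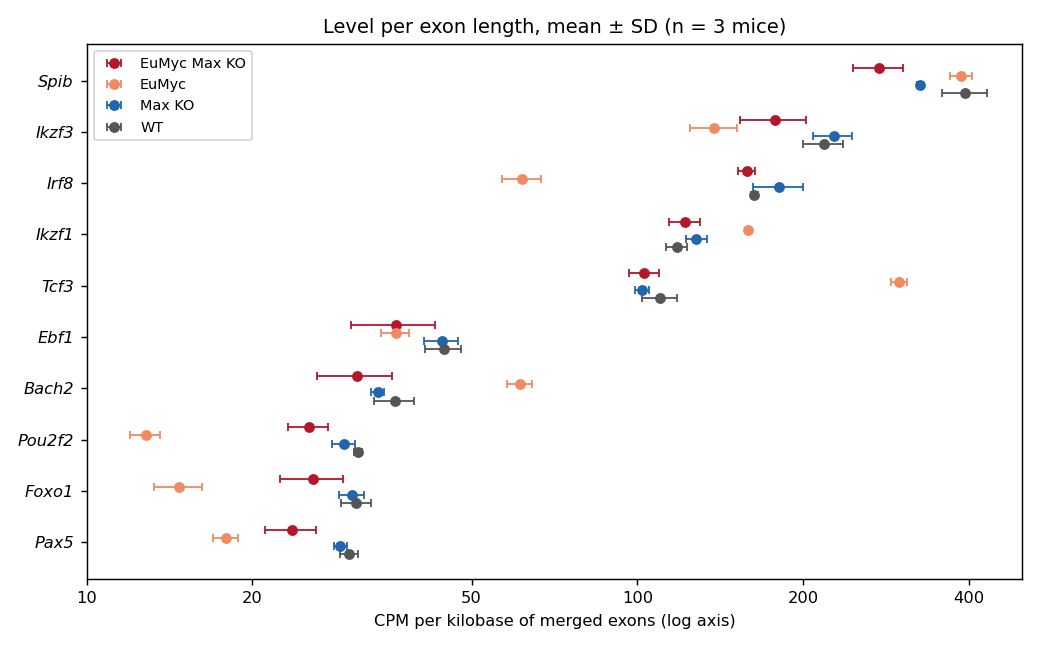
CPM per kilobase of merged exons (horizontal log axis) of the 10 factor genes, ordered by their WT level, with the mean ± SD of 3 mice for each group. Tcf3 in EuMyc (299) lies above Ikzf3 (138) and Irf8 (61.8), while in the other groups it lies below both.

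The genes most like each factor over the 12 libraries, by Pearson's r of log2 CPM among 12082 genes compared, are given as a description. All points share the 4 groups, and most of the variation lies between EuMyc and the rest. Nearest to Tcf3 were Rcc2 (0.998), Smarca4 (0.997) and Hes6 (0.996), and 1490 genes had an r over 0.95 with it. Irf8 was nearest to Tmem63a (0.997) and had 1076 such genes, Pou2f2 to Sh3kbp1 (0.997) with 1017, and Foxo1 to Cd69 (0.995) with 745. Pax5 (Rmdn1, 0.987, 273 genes), Bach2 (Srpk2, 0.987, 177 genes), Ikzf1 (Polr1a, 0.982, 55 genes) and Ikzf3 (Zfp882, 0.981, 54 genes) had fewer. Spib had 2 such genes, with Pqbp1 (0.957) the nearest, and Ebf1 had none, its nearest gene being Ppp1r12a (0.915).

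Partners and regulators of the 10 factors were followed in a list of 30 genes, of which 28 were tested. In EuMyc against WT cells 10 rose and 12 fell (median log2 fold change -0.24), and in EuMyc Max KO against EuMyc cells 15 rose and 10 fell (median 0.31). Over all tested genes 36.7% rose and 34.9% fell in the first of these comparisons, and 37.6% rose and 36.1% fell in the other. With replicate 3 as the only EuMyc Max KO library, where the filter left all 30 genes, 12 rose and 8 fell against EuMyc, beside 30.1% and 31.4% of all genes. Among the other E protein genes Tcf4 fell and Tcf12 rose. Tcf4 had 102, 88.7 and 89.6 CPM in EuMyc libraries and 155, 194 and 164 CPM in WT libraries (log2 fold change -0.87, adjusted p = 2.49e-06), and the log2 fold change of Tcf12 was 0.43 (adjusted p = 4.32e-05). Id2, which encodes an inhibitor that binds E proteins, had 135, 90.6 and 63.5 CPM in EuMyc Max KO libraries. In EuMyc libraries it had 23.3, 20.4 and 19.7 CPM (log2 fold change 2.19, adjusted p = 1.07e-05 in edgeR's test). Within EuMyc Max KO it was highest in the 2 libraries with the most erythroid and macrophage marker RNA. Pou2af1, the coactivator that joins POU2F2 on octamers, had 1110.3, 1093.0 and 1102.4 CPM in EuMyc libraries and 686, 631 and 643 CPM in WT libraries. Its log2 fold change of 0.75 (adjusted p = 1.58e-06) was opposite in sign to that of Pou2f2. Irf4, a close relative of Irf8, rose by 0.62 on the log2 scale in EuMyc against WT cells (adjusted p = 1.27e-05), where Irf8 fell. Spi1, which encodes PU.1, the ETS relative of SPIB, had a log2 fold change of -0.49 (adjusted p = 1.17e-04). Myb, a progenitor factor, showed the highest value of the list, with 397, 403 and 362 CPM in EuMyc libraries and 40.2, 44.0 and 35.5 CPM in WT libraries (3.28, adjusted p = 1.71e-10). In Max KO against WT cells, where 7.27% of all tested genes rose and 7.74% fell, 1 of the 28 rose (Gfi1, 0.46, adjusted p = 0.0463) and 3 fell, with Foxp1 (-0.35, adjusted p = 0.0219) and Irf4 (-0.26, adjusted p = 0.0444) among those that fell.

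Known target genes of the factors changed in both directions. Of 19 genes that PAX5 or EBF1 activate, 5 rose and 13 fell in EuMyc against WT cells (median log2 fold change -0.91), and 11 rose and 5 fell in EuMyc Max KO against EuMyc cells (median 0.45). The shares over all genes were 36.7% higher and 34.9% lower in EuMyc against WT cells, and 37.6% higher and 36.1% lower in EuMyc Max KO against EuMyc cells. With replicate 3 alone the median log2 fold change of the list against EuMyc was 0.51, where over all genes it was 0.0. Cr2, which encodes complement receptor CD21, had 48.6, 41.7 and 69.3 CPM in EuMyc libraries and 1236.4, 1338.6 and 1342.5 CPM in WT libraries (-4.62, adjusted p = 2.53e-09). Fcer2a, which encodes CD23, had a log2 fold change of -4.69 (adjusted p = 1.72e-06). In the other direction Cplx2, a complexin, had 205, 235 and 234 CPM in EuMyc libraries and 28.8, 30.5 and 20.3 CPM in WT libraries (3.08, adjusted p = 5.8e-08). In Max KO against WT cells 3 of the 19 rose, Bst1 (log2 fold change 1.05) and Cr2 (0.56) among them, and 4 fell. Over all tested genes 7.27% rose and 7.74% fell there. Cd79a, the B cell receptor signalling chain, was among those that fell (-1.22, adjusted p = 1.63e-05). It had 779, 862 and 835 CPM in Max KO libraries and 2122.3, 1936.7 and 1690.8 CPM in WT libraries. Neither Pax5 nor Ebf1 passed the test in this comparison, and a link of the targets to either gene was not tested.

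Genes repressed by PAX5 fell in EuMyc against WT cells, 15 of 16 tested with none higher (median log2 fold change -2.30). In EuMyc Max KO against EuMyc cells 13 rose and none fell (median 2.36). Of all tested genes 34.9% fell in the first comparison, and 37.6% rose in the other. With replicate 3 alone the median of the 17 genes then tested was 2.45 against EuMyc, where over all genes it was 0.0. Some members are known from other lineages: Ccr2 is a chemokine receptor of monocytes, Tcf7 a T cell factor and Alox5ap a leukotriene synthesis protein of myeloid cells. Ccr2 had 0.967, 2.34 and 2.61 CPM in EuMyc libraries and 21.1, 44.7 and 38.7 CPM in WT libraries. Tcf7 had 1.98, 1.75 and 1.72 CPM in EuMyc libraries and 9.68, 13.5 and 16.1 CPM in WT libraries. Grap2 stood at a higher level, with 42.5 to 65.3 CPM in EuMyc and 261 to 307 CPM in WT libraries (log2 fold change -2.46). T cell and macrophage markers were lower in the same EuMyc libraries than in WT or EuMyc Max KO libraries, with the sums given above. In EuMyc Max KO against EuMyc cells all 10 T cell genes rose (median 3.15). Of 13 macrophage genes 12 rose and 1 fell there (median 2.14). Csf1r and Cd28 stand both in this list and in those marker lists. The part of these cell types and genes in the list's counts was not tested.

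Of 16 genes activated by FOXO1, 4 rose and 11 fell in EuMyc against WT cells (median -0.98), beside 36.7% and 34.9% of all tested genes. Rag1, a subunit of the V(D)J recombinase, had 355, 288 and 368 CPM in EuMyc libraries and 3.15, 3.86 and 1.49 CPM in WT libraries. In EuMyc Max KO libraries Rag1 was at 16.1, 11.9 and 2.29 CPM, with the lowest value in replicate 3. Bcl6, the germinal centre repressor, had a log2 fold change of -3.57 (adjusted p = 2.12e-10). In Max KO against WT cells, where 7.74% of all tested genes fell, 4 of the 16 fell and none rose, among them Klf2 (-0.78, adjusted p = 0.0101). Foxo1 itself did not pass the test there (-0.03, adjusted p = 0.878).

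BACH2 and PAX5 hold back the plasma cell programme, of which 10 genes were tested. In EuMyc against WT cells 1 rose and 5 fell (median -0.77), and in EuMyc Max KO against EuMyc cells 6 rose and 1 fell (median 0.89). All tested genes gave 36.7% higher and 34.9% lower in EuMyc against WT cells, and 37.6% higher and 36.1% lower in EuMyc Max KO against EuMyc cells. Hmox1, the haem oxygenase gene of this list, had 1482.9, 973 and 414 CPM in EuMyc Max KO libraries. It had 209 to 276 CPM in EuMyc and 463 to 787 CPM in Max KO libraries. Within EuMyc Max KO it was highest in the 2 libraries with the most erythroid and macrophage marker RNA. With replicate 3 alone the median of this list against EuMyc was 0.99, where over all genes it was 0.0. Prdm1, which encodes BLIMP1 and is a direct BACH2 target, had 2.71, 2.34 and 4.28 CPM in EuMyc libraries and 10.8, 15.5 and 19.1 CPM in WT libraries (-2.28, adjusted p = 5.18e-06). In EuMyc Max KO libraries Prdm1 had 14.2, 14.7 and 18.0 CPM (2.33 against EuMyc, adjusted p = 4.43e-06), while Bach2 was lower there than in EuMyc. Jchain, the joining chain of secreted IgM and IgA, had 73.8, 187 and 106 CPM in Max KO libraries and 508, 926 and 1147.9 CPM in WT libraries (-2.82, adjusted p = 0.0253).

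Stage markers gave the setting of these changes. Of 17 tested genes of pro-B and pre-B cells, 13 rose and 3 fell in EuMyc against WT cells (median 2.11), and 3 rose and 8 fell in EuMyc Max KO against EuMyc cells (median -1.38). All 18 mature B cell genes fell in EuMyc against WT cells (median -2.24), and 17 of 18 rose in EuMyc Max KO against EuMyc cells (median 1.92). The background was 36.7% higher and 34.9% lower in the first of these comparisons and 37.6% higher and 36.1% lower in the other. With replicate 3 as the only EuMyc Max KO library, the median against EuMyc was -2.47 for the early genes and 2.09 for the mature genes. Over all genes it was 0.0 in this setting. Against Max KO, EuMyc Max KO cells had 9 of the 17 early genes higher and none lower, and 5 of the 18 mature genes lower and none higher, where 10.7% of all tested genes were higher and 3.69% lower. With replicate 3 alone these counts were 3 early genes higher, beside 3.87% of all genes, and no mature gene lower, beside 0.381%. Cd24a, a surface protein gene of immature B cells, had 1749.8, 1300.7 and 912 CPM in EuMyc Max KO libraries and 689, 745 and 831 CPM in Max KO libraries. Dntt, the terminal transferase gene, had 11.3, 12.2 and 1.3 CPM in EuMyc Max KO libraries and 3.5, 7.35 and 2.34 CPM in Max KO libraries, and did not pass the test (adjusted p = 0.396). Likewise Igll1, a surrogate light chain gene of pre-B cells, had 7.52, 7.89 and 0.884 CPM in EuMyc Max KO libraries and 0.113, 0.384 and 0 CPM in Max KO libraries. For these 3 genes the higher values lay in replicates 1 and 2, the libraries with the most erythroid and neutrophil RNA. Some others of the list differed less between the EuMyc Max KO libraries. Cd93 had 52.2, 56.4 and 53.7 CPM there and 30.5 to 36.8 CPM in Max KO libraries. Sox4 had 22.5, 27.7 and 23.0 against 14.9 to 17.4 CPM, and Myb 71.8, 70.5 and 57.1 against 41.9 to 44.3 CPM. The part of the erythroid, neutrophil and macrophage RNA in the counts of this list was not tested. Over all tested genes the medians of these comparisons lay between 0.00 and 0.03.

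**Figure D5:**
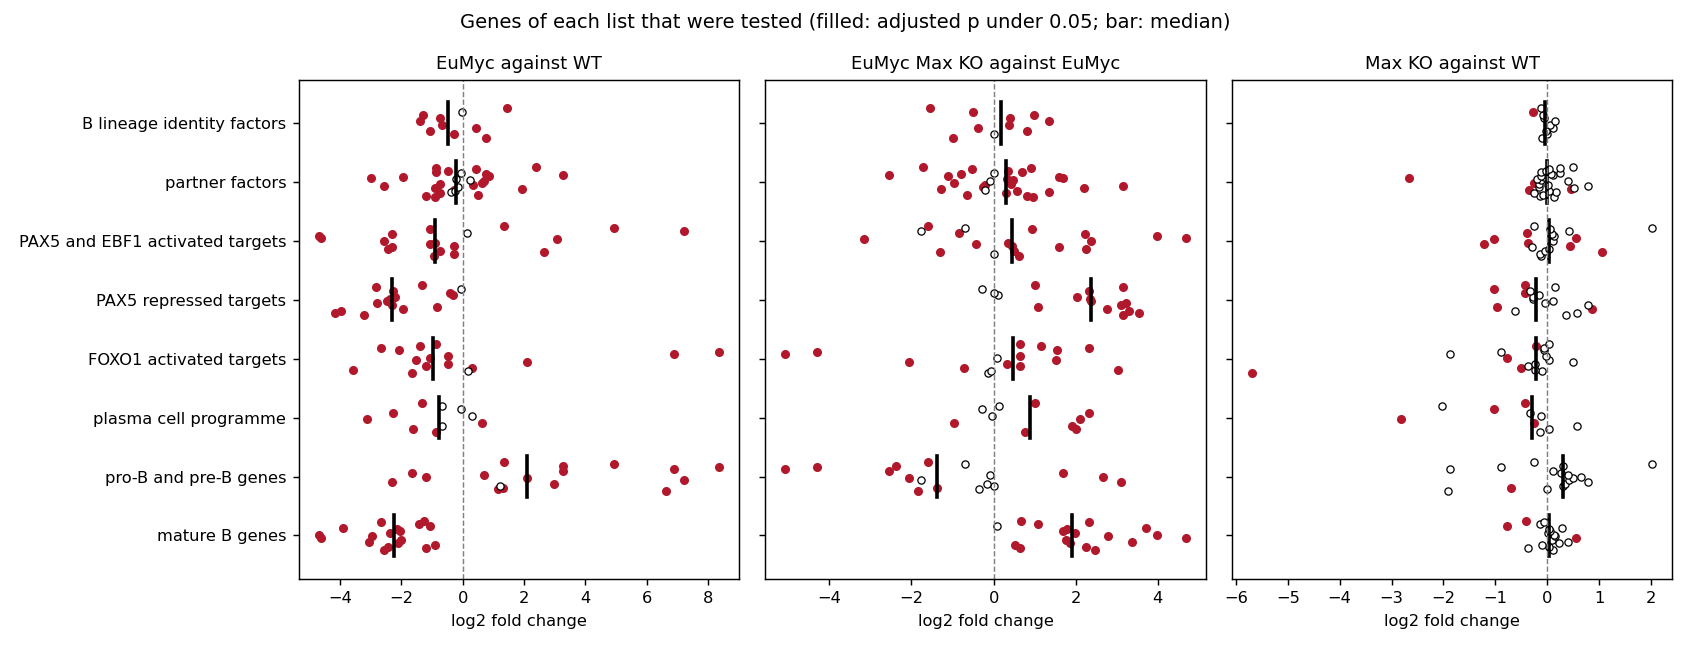
Log2 fold change (horizontal axis) of each tested gene in the 10 factors and the 7 other lists in 3 panels (EuMyc against WT, the transgenic pair of groups, Max KO against WT), with the median of each list as a bar and filled points for an adjusted p under 0.05. The mature B genes lie below 0 in EuMyc against WT (median -2.24) and the pro-B and pre-B genes mostly above (median 2.11), while the 10 factors lie on both sides.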

How the data were processed

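RNA of B220+ splenocytes was sequenced from 12 mice. The authors deposited 1 table per mouse with unnormalized counts of reads for each gene symbol. Per the submitters' processing notes the tools were bcl2fastq 1.8.4, TopHat2 2.1.0 and HTSeq 0.6.1 and the build was mm10; of the annotation and the counting strand, nothing is given in the sources used here. Summary rows that name no gene held 34.9% to 45.4% of all reads in the tables and stayed out of library sizes and tests.

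Groups came from the genotype labels. No replicate files were identical, and within groups they differed by more than sampling noise (chi-square per degree of freedom 7.46 to 65.6). Counts were analysed with R 4.3.3 and edgeR 4.0.16: filterByExpr, TMM scaling, and 1 quasi-likelihood fit of all 12 libraries with 8 residual degrees of freedom, with Benjamini-Hochberg adjustment over 12878 genes and a threshold of 0.05. The spread of each gene was estimated over all 12 libraries and moderated toward that of other genes, and calls rest on that. The common biological coefficient of variation was 13.7%. An exact two-sided permutation test of 3 against 3 mice cannot go below 0.1. A change in RNA per cell cannot be read from such scaled values.

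Same-numbered WT and Max KO libraries deviated together from their group means (r = 0.312 to 0.585, every pair over 0.1), a pattern found in the data and not stated in the labels. Some libraries of different numbers reached like values. For EuMyc Max KO replicate 2, r was 0.342 with WT replicate 1 and 0.373 with Max KO replicate 1. Alternatives were RLE, upper-quartile or total-count scaling, no filter, DESeq2 1.42.0, the compared groups alone, a replicate block, and leaving out each replicate. The text names the 10 factors, Max and Myc. From each list it names up to 4 called genes with the highest absolute change and a mean of at least 5 CPM, and for each factor the 3 genes most like it, or some of these. Partner genes such as Tcf4, Tcf12, Pou2af1, Spi1 and Irf4, and Cd24a, Cd93, Cox6a2, Dntt, Igll1, Itgam, Myb and Sox4, that fall outside this in a comparison were chosen after their values were seen. The factors and lists were chosen with earlier results of these data known. Coordinates and exon lengths are from GENCODE vM21, and promoter windows from RefSeq.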

Additional observations from a re-analysis of the deposited data

Results flagged for a closer look

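For 7 of the 10 factor genes the log2 effect of Max loss differed between cells with and without the transgene, by a test of the difference itself (edgeR's quasi-likelihood test, Benjamini-Hochberg adjusted over all tested genes). The difference was 1.2 for Irf8, 1.07 for Pou2f2, 0.84 for Foxo1 and 0.46 for Pax5, and -1.42 for Tcf3, -0.88 for Bach2 and -0.50 for Ikzf1. Among all tested genes 55.7% passed the same test. Each of the 7 calls held in the 19 other settings tried.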

How the results depend on the processing

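Direction and call held in all 13 or 14 other settings for 8 of the 9 genes called in EuMyc against WT (the exception is Ebf1), for the 9 called in EuMyc Max KO against EuMyc and, in 19 settings, for the 7 called in the interaction. Total-count scaling moved the median of all genes to 0.15 in EuMyc Max KO against EuMyc; upper-quartile scaling moved it to 0.12 there, -0.12 in EuMyc against WT and 0.11 in the interaction. Where a count fell to 0 or moved otherwise, and unless the setting has fewer libraries, the cause was not tested.

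In Max KO against WT the number of the 10 genes called was 0 with upper-quartile factors, total counts, no filter or the replicate block over all libraries (1, 3, 1 and 1 at an unadjusted p under 0.05 in edgeR, and 1 called by DESeq2), and 0 to 1 without 1 library. All genes called were 808 (without WT replicate 1) to 1565 when 1 library was left out, against 1933. In EuMyc Max KO against Max KO the 10 genes gave 4 calls with total counts, 4 with DESeq2, 0 with only these groups fitted (5 at an unadjusted p under 0.05) and 0 with replicate 3 alone, and 0 to 6 without 1 library. All genes called were 851 with only these groups, 569 with replicate 3 alone and 1057 to 2846 without 1 library. In EuMyc Max KO against WT the 10 genes gave 6 calls with RLE factors, 5 with upper-quartile factors, 6 with DESeq2, 5 with the replicate block and 0 with replicate 3 alone, and 3 to 7 without 1 library. All genes called were 932 with replicate 3 alone and 2379 to 4236 without 1 library.

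Signs turned only for log2 values that passed the test in no setting. Ebf1 in Max KO against WT was 0.0274 (total counts), 0.0019 (only these groups) and 0.00246 (replicate block of WT and Max KO), and -0.0737 to 0.0382 without 1 library. Foxo1 there was 0.0134 with total counts and -0.0843 to 0.0251 without 1 library, and Ikzf3 -0.0307 to 0.113. Ebf1 in EuMyc Max KO against EuMyc was -0.00876 (no filter), -0.000222 (replicate block) and -0.147 to 0.103 without 1 library, and -0.134 to 0.115 in the interaction. In EuMyc Max KO against Max KO, Tcf3 was -0.0183 (upper quartile), -0.00277 (total counts), -0.0785 (replicate 3 alone) and -0.0253 to 0.0656 without 1 library, and with replicate 3 alone Ikzf1 was 0.0322 and Bach2 0.0534. Without 1 library, Spib was -0.0825 to 0.049 in EuMyc against WT, and Ikzf1 -0.00648 to 0.0809 in EuMyc Max KO against WT.

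Outside WT and Max KO, same-numbered libraries correlated at -0.315 to 0.176 and share only a number. With the replicate block over all libraries, the interaction of Ikzf3 was also called. It was called too when EuMyc replicate 3 or EuMyc Max KO replicate 1 was left out (adjusted p as low as 0.0271 in edgeR's test). With replicate 3 as the only EuMyc Max KO library its value was 0.5. The lowest count of any factor in a library was 1706 reads (Pou2f2).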
